A study of Mus musculus with 24 samples.

Results

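The Dynlt1 and Tmem181 genes of mouse chromosome 17 (Mmu17) form a cluster of near-identical copies. By its place in the GRCm38 annotation, the cluster lies in the Mmu17 segment carried in excess by Ts65Dn mice. The 6 genes described here, Dynlt1a, Dynlt1b, Dynlt1c, Dynlt1f, Tmem181a and Tmem181b-ps, were picked by name from the 55385 genes of the count table, and each copy was followed singly and summed within its family. Their levels in Ts65Dn against wt mice were known when they were picked, in particular that some stayed under the 1.5-fold of the segment's other genes. The genotype values of the copies are therefore given as a description, with no test, and tests were kept for the difference between regions, for the share of each copy in its family and for the spread between mice. Tmem181c-ps, a further pseudogene copy in the cluster, and Dynlt1-ps1, a processed pseudogene on chromosome 6, are described beside the 6 copies because they share sequence with them.

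Polyadenylated RNA was sequenced from the hippocampus (HIP) and the entorhinal cortex (EC) of 6 wt and 6 Ts65Dn male mice aged 5 to 6 months, which gave 24 libraries. Ts65Dn mice carry a freely segregating extra chromosome that joins the part of Mmu16 homologous to human chromosome 21 to the centromeric part of Mmu17, and the wt mice were littermates without it. All mice came from a Jackson Laboratory subline of Ts65Dn on a mixed B6C3B background, from crosses of C57BL/6J with a sighted C3H line, whereas reads were aligned to the C57BL/6J genome. The extra chromosome itself first arose after irradiation of DBA/2J males, and neither the number of copies of each gene nor the strain of their alleles was measured here. The authors did not find an interval with Tulp4, Tmem181a and Sytl3 in the DBA/2J genome. Whether the extra chromosome carries every copy of the cluster was not tested.

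Dynlt1, also known as Tctex-1, is a light chain of cytoplasmic dynein, the motor that carries cargo along microtubules towards their minus ends. In neurons dynein moves endosomes and signalling vesicles from axons and dendrites to the cell body, and Dynlt1 is 1 of the chains through which cargo is attached. Tmem181 encodes a membrane protein with several helices and belongs to the GOLD domain seven-helix proteins, and human cells that lack it resist a bacterial cytolethal distending toxin. A pseudogene such as Tmem181b-ps is a copy that is not annotated as coding for a full protein, although it can be transcribed.

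In the GRCm38 annotation the cluster starts with Tmem181a on the plus strand (chr17:6256860-6308314), followed on the minus strand by Dynlt1a (chr17:6306340-6317500). Dynlt1b (chr17:6430112-6436296, plus strand) and Tmem181b-ps (chr17:6438524-6467022, minus strand, a transcribed unprocessed pseudogene) came next, then Dynlt1c (chr17:6601671-6609774, plus strand), Tmem181c-ps (chr17:6613753-6639790, minus strand, an unprocessed pseudogene) and Dynlt1f (chr17:6646602-6655900, minus strand). The 3′ ends of Tmem181a and Dynlt1a ran into each other over 1975 bp, of which 580 bp were exonic in both genes. Whether counting used the strand of reads is not given in the sources used here, so in those 580 bp reads of Tmem181a and of Dynlt1a could not be told apart with certainty.

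The sequences show how little separates the Dynlt1 copies. In GENCODE vM21 the coding sequences of Dynlt1a, Dynlt1c and Dynlt1f were 339 bases long without the stop codon and did not differ at any base, whereas Dynlt1b had 1 difference, C21A, counted from 1 at the first coding base with the base of Dynlt1a first. The first 300 coding bases of Dynlt1a (on the minus strand, in 5 coding exons) are shown first, with the base that differs in Dynlt1b in capitals, since a read of it that lies within the coding sequence fits Dynlt1c and Dynlt1f at every base.
Dynlt1a: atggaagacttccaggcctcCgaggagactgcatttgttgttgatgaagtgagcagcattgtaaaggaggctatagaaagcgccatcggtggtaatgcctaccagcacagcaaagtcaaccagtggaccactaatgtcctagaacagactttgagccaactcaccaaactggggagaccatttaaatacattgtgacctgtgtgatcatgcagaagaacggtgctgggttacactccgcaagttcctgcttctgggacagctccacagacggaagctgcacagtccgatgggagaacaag

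The first 50 coding bases of Dynlt1b, as long as 1 read of this study, differ from those of Dynlt1f and of Dynlt1-ps1 by that base alone, again in capitals. Dynlt1-ps1 (chr6:135349408-135349749, 342 bp) matched the coding sequence of Dynlt1a at each of its 339 bases.
Dynlt1b: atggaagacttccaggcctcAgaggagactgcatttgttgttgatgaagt
Dynlt1f: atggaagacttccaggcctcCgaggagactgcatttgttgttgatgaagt
Dynlt1-ps1: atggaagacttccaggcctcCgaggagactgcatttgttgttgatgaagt

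The Tmem181 copies were nearly as close. Tmem181b-ps aligned with the coding sequence of Tmem181a over 1412 bases with 7 differences (99.5% identity), and Tmem181c-ps over 1338 bases with 9 differences (99.3% identity). The first 90-base stretch aligned in all 3 copies in which both pseudogenes differ from Tmem181a spans coding bases 132 to 221 of Tmem181a. It holds 2 differences in Tmem181b-ps and 1 in Tmem181c-ps, and both positions are in capitals.
Tmem181a: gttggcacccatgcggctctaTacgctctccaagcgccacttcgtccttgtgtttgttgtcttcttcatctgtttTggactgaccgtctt
Tmem181b-ps: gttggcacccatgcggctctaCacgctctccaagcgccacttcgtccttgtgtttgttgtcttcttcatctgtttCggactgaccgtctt
Tmem181c-ps: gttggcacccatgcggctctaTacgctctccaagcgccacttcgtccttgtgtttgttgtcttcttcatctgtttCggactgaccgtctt

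What a 50-base read could say was measured by cutting all annotated transcripts into 50-base words. Of the words of Tmem181a, 71.0% were found in no other gene, against 50.4% for Tmem181b-ps and 27.7% for Tmem181c-ps. In the Dynlt1 family the share fell from 37.0% for Dynlt1a to 16.8% for Dynlt1b, 15.6% for Dynlt1c and 11.4% for Dynlt1f, and Dynlt1-ps1 had 0 words of its own. Within the 339-base coding sequence, 0 of 290 words were specific to Dynlt1a, Dynlt1c or Dynlt1f and 21 of 290 to Dynlt1b. A second Dynlt1a transcript with another 3′ exon, coding for 336 bases, had 65 specific words of 287. Dynlt1f shared 80.9% of its words with Dynlt1c and 66.7% with Dynlt1a, and Dynlt1b shared 76.3% with Dynlt1a. Counts of a single copy are therefore uncertain where reads fitted several copies, and how such reads were treated is not given in the sources used here.

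**Figure D1:**
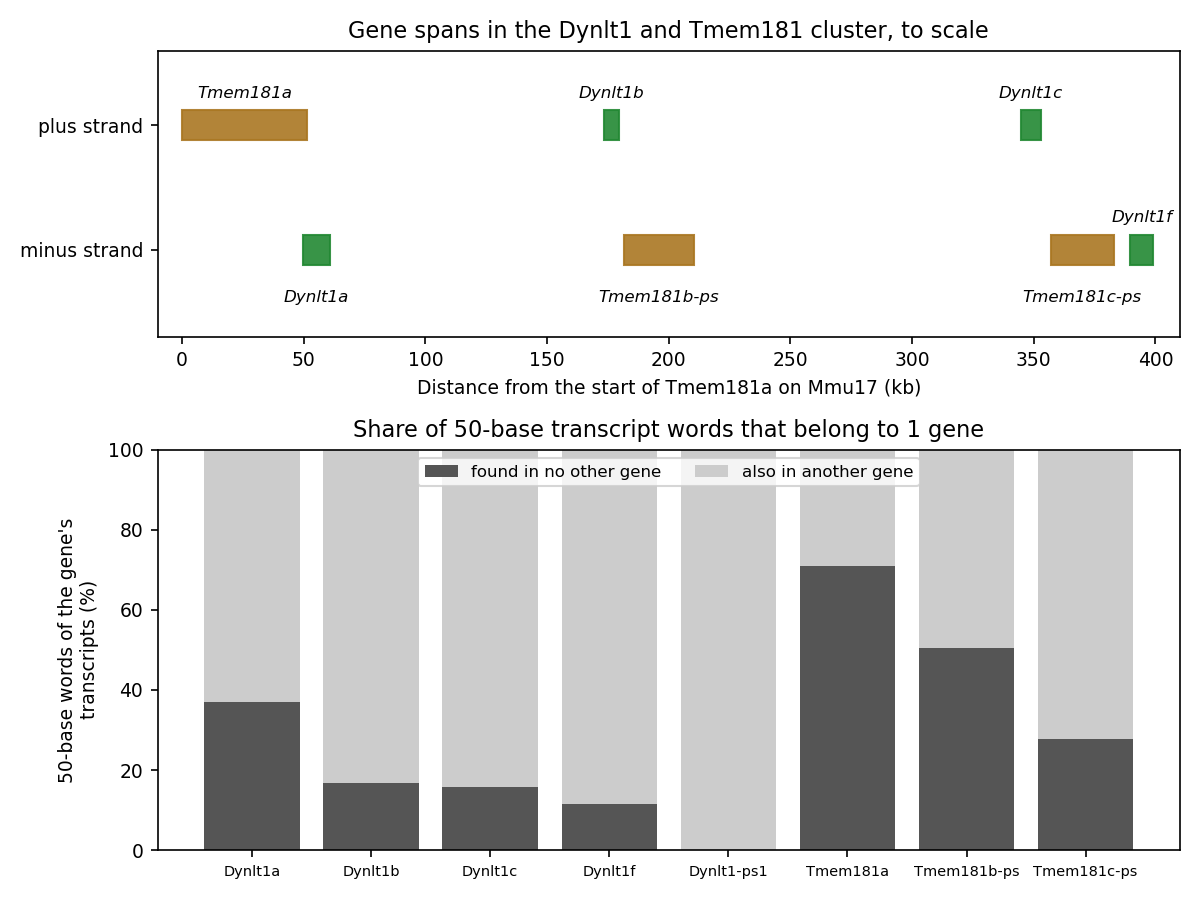
Top, spans of the cluster's genes to scale, as distance in kb from the start of Tmem181a, with the strand on the vertical axis, Dynlt1 genes in green and Tmem181 genes in brown. Bottom, share of each gene's 50-base transcript words (%) that no other annotated gene holds (dark) or that another gene holds too (light), from 71.0% specific words for Tmem181a to 0.0% for Dynlt1-ps1.

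The libraries held 23128589 to 40476492 counts in total. The regions were as labelled by their markers: 4 of 5 hippocampal genes were higher in HIP, all but Wfs1, and 4 of 5 cortical genes were lower there, all but Fezf2. Choroid plexus genes varied most, with a summed level of 50.9 to 5044 CPM in the HIP libraries, against at most 48.9 CPM in any EC library. CPM is a gene's count scaled by the total of its library, with TMM factors. The mouse labelled Ts65Dn replicate 3 stood apart in both regions. The median of 25 other coding genes of the Mmu17 segment was 1.03 times the wt mean in its HIP and 0.964 times in its EC, against 1.44 to 1.53 and 1.47 to 1.63 in the other 5 Ts65Dn mice, and the median of 82 coding genes of Mmu16 was 1.02 and 1.01 times. The genotype values of the copies and of the flanking genes are therefore given with and without this mouse.

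Tmem181a had the most counts of all copies, Dynlt1a and Dynlt1f had few, and Dynlt1b and Dynlt1c were close to the limit of detection. Per kb of annotated exon, the mean level in wt HIP was 2.32 ± 0.549 CPM for Tmem181a (SD, n = 6 in this and the following values), 1.85 ± 0.702 for Tmem181b-ps and 1.37 ± 1.06 for Tmem181c-ps. It was 0.147 ± 0.0603 CPM per kb for Dynlt1a, 0.129 ± 0.050 for Dynlt1f, 0.0253 ± 0.0316 for Dynlt1b and 0.0139 ± 0.0134 for Dynlt1c. In wt EC the order of the 3 Tmem181 copies was the same, at 2.86 ± 0.645, 1.36 ± 0.431 and 0.735 ± 0.480 CPM per kb. The spreads of neighbours overlapped in wt HIP within the Tmem181 family, between Dynlt1a and Dynlt1f and between Dynlt1b and Dynlt1c, while the lowest Tmem181b-ps library (1.16 CPM per kb) lay above the highest Dynlt1a library (0.244 CPM per kb). Dynlt1-ps1 stood at 1.41 ± 0.780 CPM per kb in wt HIP although none of its words was its own, and its mean in Ts65Dn mice was 1.49 times the wt mean in HIP and 1.35 times in EC (1.59 and 1.47 times without the mouse labelled Ts65Dn replicate 3), with overlapping groups.

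The order depended on how length was counted. With the same counts divided by the kb of words specific to each copy, wt HIP had 5.13 ± 3.96 CPM for Tmem181c-ps, 3.63 ± 1.38 for Tmem181b-ps and 3.22 ± 0.762 for Tmem181a, so the order of the 3 Tmem181 copies turned, with overlapping spreads. On the same scale Dynlt1f stood at 1.12 ± 0.433 CPM and Dynlt1a at 0.389 ± 0.160, and the lowest Dynlt1f library (0.763) lay above the highest Dynlt1a library (0.647). The Dynlt1f value per kb of exon was lower than that of Dynlt1a. No order among copies of a family can thus be read from these counts alone.

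Dynlt1a, the copy next to Tmem181a, had few reads everywhere. In HIP its counts had a lowest value of 10, a median of 18.0 and a highest value of 35 per library in wt mice, and of 6, 13.5 and 26 in Ts65Dn mice. In EC they were 14, 21.0 and 30 in wt mice and 9, 13.0 and 22 in Ts65Dn mice. The groups overlapped in both regions, with 2 Ts65Dn libraries below all wt libraries in HIP and 3 in EC. The mean level was 0.743 times the wt level in HIP (0.465 ± 0.232 against 0.626 ± 0.257 CPM) and 0.641 times in EC (0.475 ± 0.159 against 0.742 ± 0.202 CPM). Without the mouse labelled Ts65Dn replicate 3 these ratios were 0.736 and 0.642.

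Dynlt1f, at the distal end of the cluster, lay on the other side of 1. Its counts had a lowest value of 8, a median of 13.0 and a highest value of 24 in wt HIP, and of 12, 17.5 and 23 in Ts65Dn HIP. In EC they were 8, 9 and 13 in wt mice and 11, 16 and 29 in Ts65Dn mice. The groups overlapped in HIP, and in EC 5 of 6 Ts65Dn libraries lay above all wt libraries, the mouse labelled Ts65Dn replicate 3 (0.398 CPM) being the exception. The mean level was 1.29 times the wt level in HIP (0.606 ± 0.124 against 0.470 ± 0.181 CPM) and 1.69 times in EC (0.591 ± 0.152 against 0.349 ± 0.0637 CPM), and 1.37 and 1.80 times without that mouse.

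Dynlt1c and Dynlt1b were too low for the low-count filter, which 4 of the 6 copies passed, and entered no fit. Dynlt1c had 9 counts in all over the 6 wt HIP libraries and 7 over the Ts65Dn HIP libraries. In EC it had 3 counts in wt mice (1, 1, 1, 0, 0 and 0 in replicates 1 to 6) and 21 in Ts65Dn mice (6, 6, 1, 5, 1 and 2).

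Dynlt1b had 4 counts in wt HIP, 5 in Ts65Dn HIP, 5 in wt EC and 9 in Ts65Dn EC. These counts are too few to give a fold for Dynlt1b. A count of 0, as in 3 of 6 wt HIP libraries for Dynlt1b and 2 of 6 for Dynlt1c, allows a level of up to 0.0712 to 0.120 CPM there, taking 3 counts as the limit.

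Summed over its 4 copies, the Dynlt1 family had similar means in both genotypes. Dynlt1-ps1, which had no words of its own, was not in this sum. It held 90 counts in wt HIP and 124 in Ts65Dn HIP, beside 218 and 197 for the sum. In EC it held 71 and 99, beside 195 and 222. A sum with Dynlt1-ps1 was not computed. In HIP the sum had a lowest, median and highest level of 0.859, 1.15 and 1.55 CPM in wt mice and of 0.826, 1.06 and 1.69 CPM in Ts65Dn mice. In EC these were 0.913, 1.19 and 1.30 CPM in wt mice and 0.941, 1.30 and 1.48 CPM in Ts65Dn mice. The groups overlapped in both regions, and the mean in Ts65Dn mice was 0.980 times the wt mean in HIP and 1.08 times in EC, or 1.02 and 1.13 times without the mouse labelled Ts65Dn replicate 3. The share of Dynlt1a in the family's counts was 52.5% ± 11.9 in wt HIP and 39.2% ± 11.9 in Ts65Dn HIP, and 64.2% ± 9.86 in wt EC and 38.8% ± 11.0 in Ts65Dn EC. The share of Dynlt1f was 41.5% ± 15.3 in wt HIP against 54.7% ± 13.0 in Ts65Dn HIP, and 31.3% ± 7.77 in wt EC against 48.0% ± 7.65 in Ts65Dn EC. Without the mouse labelled Ts65Dn replicate 3 the share of Dynlt1a in Ts65Dn mice was 36.6% ± 11.3 in HIP and 36.6% ± 10.6 in EC, and that of Dynlt1f 56.7% ± 13.4 and 49.1% ± 7.97 (SD, n = 5).

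**Figure D2:**
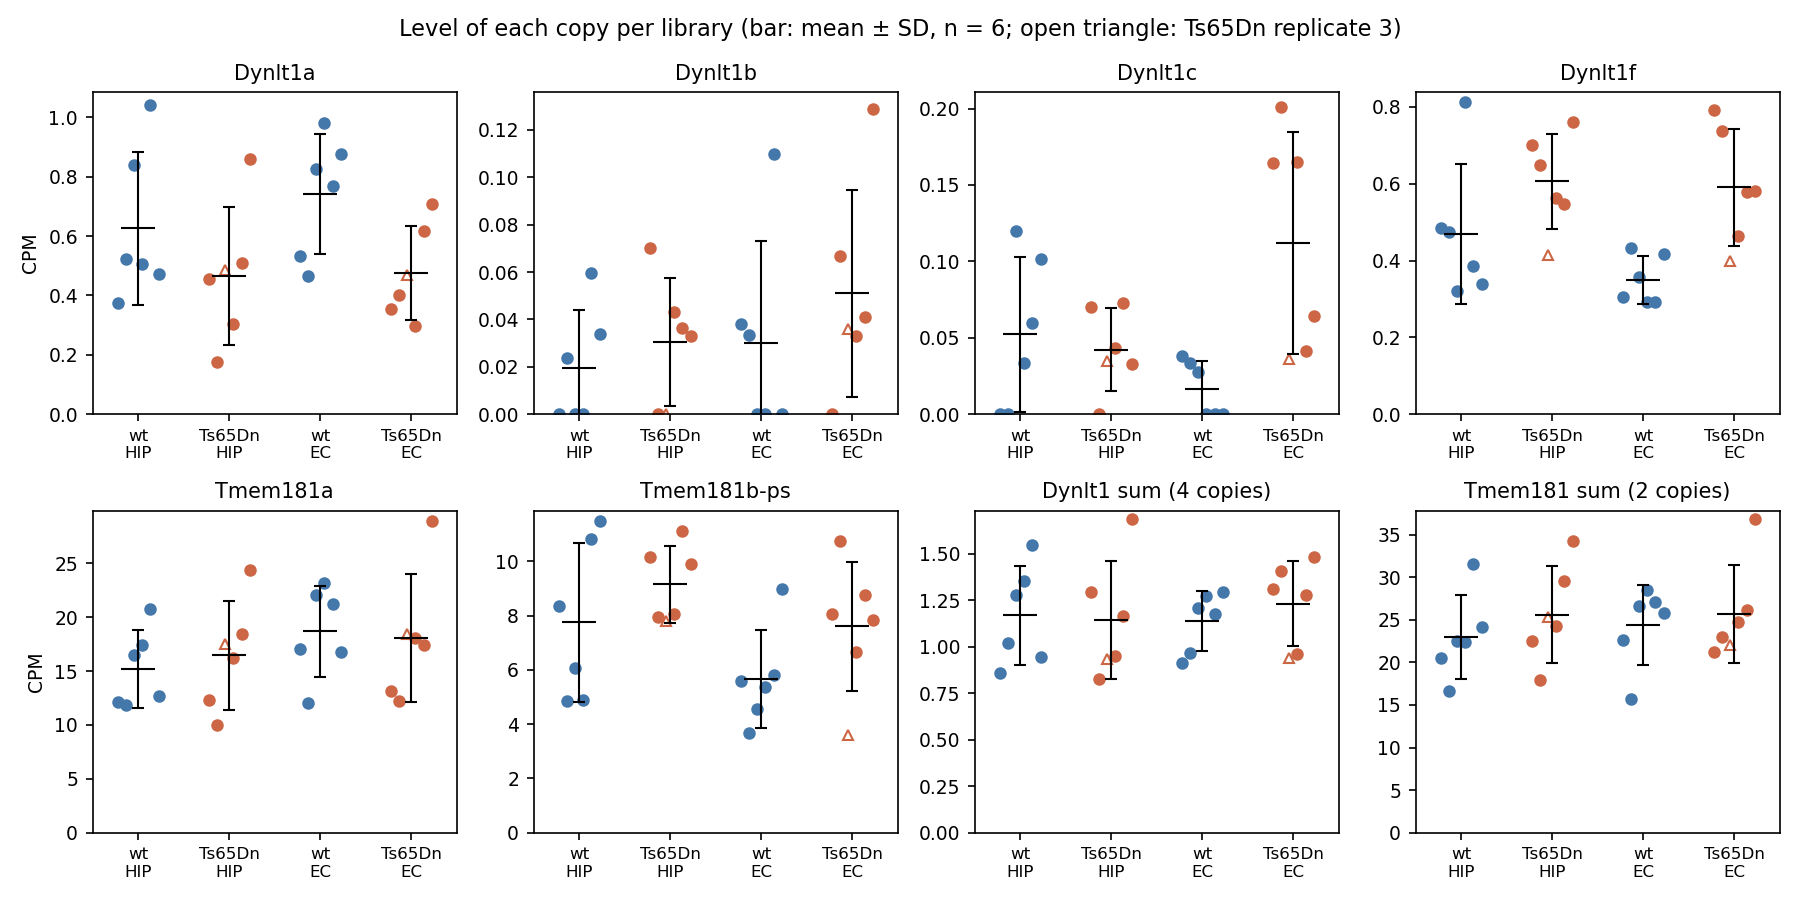
Level in CPM (vertical axes from 0) of each copy and of both family sums in every library, by group; black bars are mean ± SD over 6 mice and open triangles the mouse labelled Ts65Dn replicate 3. The Dynlt1 sum spans 0.859 to 1.55 CPM in wt HIP and 0.826 to 1.69 CPM in Ts65Dn HIP, and 5 of 6 Ts65Dn EC libraries of Dynlt1f lie above all wt EC libraries.

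Tmem181a, the coding member of its family, had the firmest counts of the cluster. In HIP its lowest, median and highest counts were 324, 455 and 696 in wt mice and 338, 440.0 and 736 in Ts65Dn mice. In EC they were 361, 513 and 803 in wt mice and 366, 495 and 898 in Ts65Dn mice. The groups overlapped over nearly their whole range in both regions. The mean level was 1.08 times the wt level in HIP (16.5 ± 5.03 against 15.2 ± 3.59 CPM) and 0.964 times in EC (18.0 ± 5.95 against 18.7 ± 4.22 CPM), and 1.07 and 0.960 times without the mouse labelled Ts65Dn replicate 3. Ts65Dn replicate 6 was the highest library in both regions, at 24.4 CPM in HIP and 28.9 CPM in EC. Without it the log2 fold change in HIP turned from 0.11 to -0.03, while in EC, where it was -0.06, it came to 0.01 when wt replicate 4 was left out and to 0.02 and 0.03 when replicates 1 and 2 of Ts65Dn were.

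Tmem181b-ps was the lower of both Tmem181 copies in mean count. In HIP its lowest, median and highest counts were 145, 214 and 364 in wt mice and 186, 279.5 and 305 in Ts65Dn mice. In EC they were 111, 153.5 and 215 in wt mice and 100, 227.5 and 321 in Ts65Dn mice. The groups overlapped in both regions, and the lowest Ts65Dn EC value, 3.62 CPM, was that of replicate 3. The mean level was 1.18 times the wt level in HIP (9.16 ± 1.41 against 7.75 ± 2.94 CPM) and 1.34 times in EC (7.61 ± 2.37 against 5.68 ± 1.80 CPM), and 1.22 and 1.48 times without that mouse. Summed, Tmem181a and Tmem181b-ps had a lowest, median and highest level of 16.7, 22.4 and 31.6 CPM in wt HIP and of 17.9, 24.8 and 34.2 CPM in Ts65Dn HIP. In EC these were 15.7, 26.2 and 28.5 CPM in wt mice and 21.2, 23.9 and 36.8 CPM in Ts65Dn mice, and the groups overlapped in both regions. The mean sum was 1.12 times the wt mean in HIP and 1.05 times in EC, or 1.12 and 1.08 times without the mouse labelled Ts65Dn replicate 3. With Tmem181c-ps added it was 1.17 and 1.11 times, or 1.19 and 1.16 times without that mouse.

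Tmem181c-ps, which shares 61.8% of its words with Tmem181a and 68.8% with Tmem181b-ps, varied widely between mice of both genotypes. In both regions 3 mice were low, wt replicates 3 and 4 and the mouse labelled Ts65Dn replicate 3, with 5 to 13 counts per library, while the other 9 mice had 28 to 156 counts. The wt HIP libraries had a lowest, median and highest level of 0.200, 2.15 and 3.92 CPM and the Ts65Dn HIP libraries of 0.450, 3.71 and 5.47 CPM. In EC these were 0.220, 1.05 and 2.01 CPM in wt mice and 0.181, 3.11 and 3.75 CPM in Ts65Dn mice. The groups overlapped in both regions, with 3 Ts65Dn libraries above all wt libraries in HIP and 4 in EC. The mean in Ts65Dn mice was 1.80 times the wt mean in HIP and 2.50 times in EC, and 2.11 and 2.97 times without the mouse labelled Ts65Dn replicate 3. Leaving it out removes the only low Ts65Dn mouse and keeps the low wt replicates 3 and 4. These ratios therefore also reflect how low and high mice were split between the genotypes, and ratios among the high mice alone were not computed. The SD of log2 CPM between wt mice was 1.75 in HIP, against a median of 0.154 over 18109 genes, and 0.359% of those genes had a larger one.

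The 2 wt mice with the low Tmem181c-ps levels had 16.5 and 17.4 CPM of Tmem181a in HIP (replicates 3 and 4) and 22.1 and 23.2 CPM in EC, where they were the highest wt libraries. Their Tmem181b-ps levels, 6.08 and 4.91 CPM in HIP and 4.57 and 5.38 CPM in EC, lay inside the range of the other wt mice. With the group means taken off, Tmem181c-ps had a Pearson r of 0.657 with Tmem181b-ps and of -0.422 with Tmem181a over the 24 libraries, which share depth and mice in pairs. Without the mouse labelled Ts65Dn replicate 3 these were 0.531 and -0.473. Both r also reflect the gap between the mice low in Tmem181c-ps and the others, and r among the others alone was not computed.

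None of the 6 copies separated the 6 Ts65Dn from the 6 wt libraries in either region. Of all genes that passed the filter, 0.680% in HIP and 1.27% in EC had all Ts65Dn libraries above all wt libraries. Without the mouse labelled Ts65Dn replicate 3, Dynlt1f and Dynlt1c did so in EC, where the nearest libraries of Dynlt1c held 1 count each. The same held for 2.03% of all genes in HIP and 2.31% in EC.

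Most tested neighbours in the same segment were higher in Ts65Dn mice. They were tested in edgeR's quasi-likelihood fit over all genes, in which 1.04% of 17355 genes in HIP and 2.50% of 17049 genes in EC passed an adjusted p of 0.05. In HIP 0.542% were called higher and 0.501% lower in Ts65Dn mice, and in EC 1.15% and 1.35%. Of 9 flanking genes chosen by position, with earlier results of these data known, 8 passed the low-count filter, all but Sytl3, a synaptotagmin-like vesicle protein gene. In HIP 5 of the 8 were higher in Ts65Dn mice and none lower. They were Synj2, a phosphoinositide phosphatase (log2 fold change 0.64, SE 0.10, adjusted p = 0.0106), Serac1, a lipid remodelling protein of mitochondria (0.60, SE 0.12, adjusted p = 0.0299), Gtf2h5, a subunit of transcription factor TFIIH (0.53, SE 0.11, adjusted p = 0.0379), Ezr, which ties membranes to actin (0.52, SE 0.10, adjusted p = 0.0286), and Tulp4, a tubby-like protein gene (0.38, SE 0.07, adjusted p = 0.0299). Snx9, a sorting nexin of endocytosis, had 0.47 (SE 0.11, adjusted p = 0.0502).

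In EC 5 of the 8 were again higher and none lower. Snx9 had a log2 fold change of 0.53 (SE 0.12, adjusted p = 0.0311), Synj2 of 0.53 (SE 0.10, adjusted p = 0.0169), Serac1 of 0.60 (SE 0.13, adjusted p = 0.0274), Gtf2h5 of 0.52 (SE 0.11, adjusted p = 0.0234) and Ezr of 0.38 (SE 0.06, adjusted p = 0.00643). Tulp4 had 0.35 (SE 0.10, adjusted p = 0.0723). Gm15590 had values below 0 in both regions, -0.30 (SE 0.30) in HIP and -0.24 (SE 0.22) in EC, with adjusted p of 0.695 and 0.607, and Rsph3b, a radial spoke protein gene, had 0.33 (SE 0.21) and 0.38 (SE 0.15), with adjusted p of 0.486 and 0.181. Among markers of other cell types, the 4 striatal genes summed to 20.1 to 58.4 CPM in Ts65Dn EC against 19.2 to 30.4 CPM in wt EC, with none at 0, and 1 of them, Drd2, was higher there (1.56, SE 0.33, adjusted p = 0.0254). The part of such cells in the EC values was not tested.

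The median log2 fold change of the 8 flanking genes was 0.50 in HIP and 0.45 in EC, against 0.0047 and 0.0046 over all genes tested. Beside these, the fitted values of the copies were -0.43 (SE 0.35) and -0.66 (SE 0.26) for Dynlt1a, 0.36 (SE 0.25) and 0.75 (SE 0.22) for Dynlt1f, 0.11 (SE 0.20) and -0.06 (SE 0.20) for Tmem181a and 0.24 (SE 0.21) and 0.42 (SE 0.23) for Tmem181b-ps, in HIP and EC respectively. For the sums they were -0.03 (SE 0.21) and 0.10 (SE 0.17) for Dynlt1 and 0.15 (SE 0.16) and 0.06 (SE 0.15) for Tmem181. Without the mouse labelled Ts65Dn replicate 3 the values in HIP and EC were -0.44 and -0.65 for Dynlt1a, 0.45 and 0.84 for Dynlt1f, 0.09 and -0.07 for Tmem181a and 0.28 and 0.57 for Tmem181b-ps. The sums then had 0.02 and 0.17 for Dynlt1 and 0.16 and 0.11 for Tmem181, and the HIP value of the Dynlt1 sum, near 0, changed its sign. The difference between the copies and the flanking genes was not tested, since the copies were picked on it.

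The calls of flanking genes rested on all mice together: 1 to 6 of the 8 genes in HIP and 2 to 6 in EC were called when 1 mouse was left out. Their values moved little, with a median log2 fold change of 0.45 to 0.56 in HIP and of 0.43 to 0.53 in EC over these fits. The fewest calls in HIP, Synj2 alone, came without wt replicate 1, 2, 3, 5 or 6 or Ts65Dn replicate 6, and the most, 6 in each region, without the mouse labelled Ts65Dn replicate 3. Without that mouse Synj2 had a log2 fold change of 0.73 in HIP and 0.61 in EC, Serac1 of 0.70 and 0.71, Gtf2h5 of 0.64 and 0.62, Ezr of 0.58 and 0.42, Snx9 of 0.53 and 0.61 and Tulp4 of 0.43 and 0.43. Gm15590 then had -0.31 and -0.32 and Rsph3b 0.44 and 0.46. In EC 2 were called, Synj2 and Ezr, without wt replicate 4 or 5 or Ts65Dn replicate 1, 2 or 4.

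**Figure D3:**
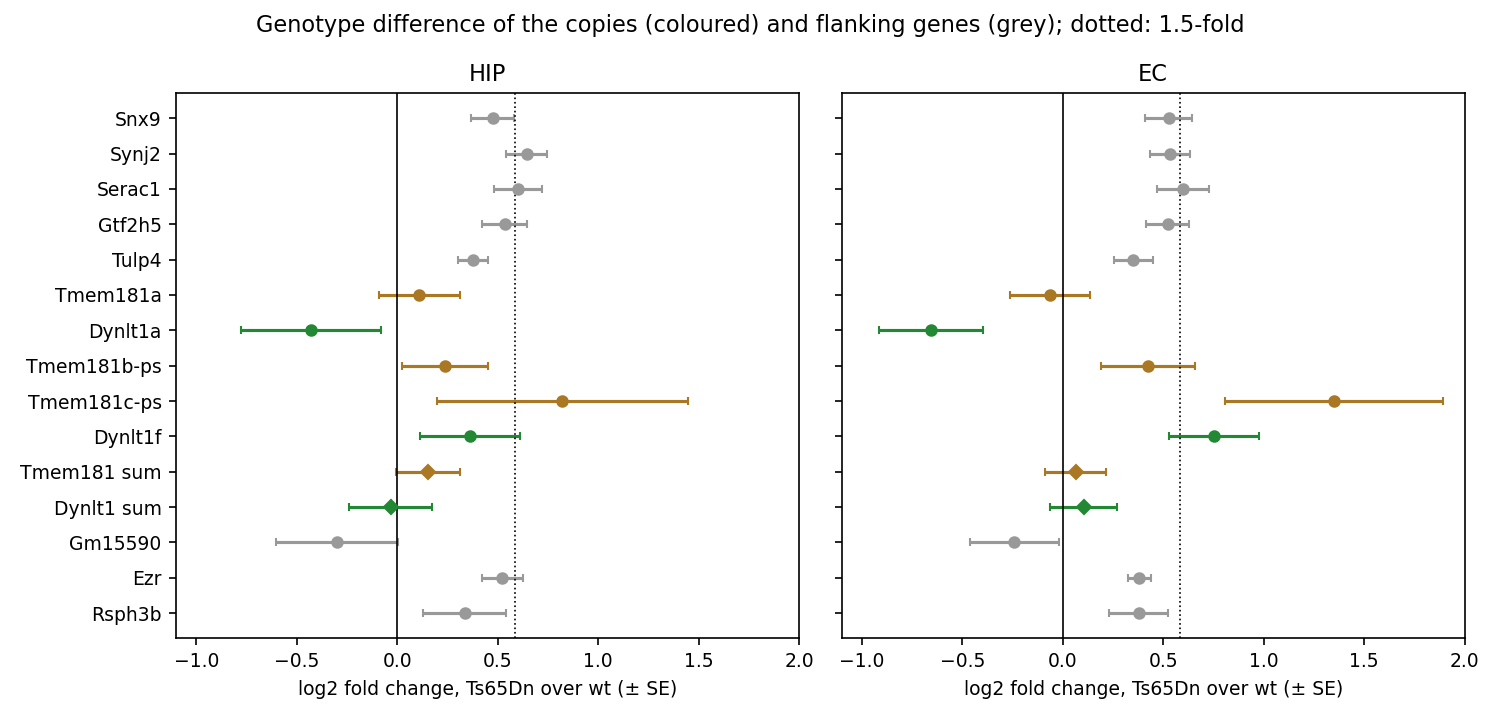
Fitted log2 fold change of Ts65Dn over wt mice (horizontal axis, ± SE from edgeR, 6 mice per group) in HIP and EC for the Dynlt1 copies (green), Tmem181 copies (brown), both family sums (diamonds) and the flanking genes (grey), with the dotted line at 1.5-fold. Synj2, Serac1 and Gtf2h5 lie at 0.52 to 0.64 in both regions, Tmem181a at 0.11 and -0.06 and Dynlt1a at -0.43 and -0.66.

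Between regions, Tmem181a and Tmem181b-ps moved in opposite directions in wt mice. This comparison asks where the copies are read more, and it was made within mice, since both regions came from the same animals. Tmem181a was lower in HIP than in EC by 0.30 on the log2 scale (log2 fold change -0.30, SE 0.07, edgeR adjusted p = 0.00532), and lower in 6 of 6 wt mice, as were 27.1% of all genes. Tmem181b-ps was higher in HIP (0.42, SE 0.12, adjusted p = 0.00926), in 5 of 6 wt mice, all but replicate 4. These were 2 of the 4 copies that passed the filter, and 61.3% of 17196 genes were called between the regions in wt mice, 31.0% higher and 30.3% lower in HIP. Tmem181b-ps shares 44.4% of its words with Tmem181a, and the part of reads that fit both copies in these opposite values was not tested. In bulk tissue such as this, fewer cells of a type and less RNA per cell cannot be told apart, and the part of other cell types was not tested: all 4 choroid plexus genes were higher in HIP, and all 3 blood genes were lower, at a summed 80.4 to 138 CPM in wt HIP against 125 to 477 CPM in wt EC, with no marker at 0 in either list.

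Tmem181c-ps was also higher in HIP in wt mice (0.79, SE 0.23, adjusted p = 0.0113), in 4 of 6 mice, and the exceptions were replicates 3 and 4, those with 5 to 10 counts. Without wt replicate 5 its value was 0.62 and the adjusted p 0.0526. Dynlt1a (-0.25, SE 0.23, adjusted p = 0.378) and Dynlt1f (0.39, SE 0.27, adjusted p = 0.239) did not pass the threshold, and neither did the sums of the Dynlt1 copies (0.03, SE 0.15, adjusted p = 0.887) and of Tmem181a with Tmem181b-ps (-0.09, SE 0.07, adjusted p = 0.308). The calls of Tmem181a and Tmem181b-ps held in each of the 6 fits that left out 1 mouse, with values of -0.35 to -0.26 and 0.32 to 0.53, and were lost in the fit without the mouse as a block, where the values were of like size, -0.30 and 0.45, and the adjusted p was 0.145 and 0.142.

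In Ts65Dn mice the same copies leaned the same way, with smaller values. Tmem181a had -0.14 (SE 0.07, edgeR adjusted p = 0.110) and was lower in HIP in 5 of 6 mice, and Tmem181b-ps had 0.30 (SE 0.15, adjusted p = 0.123) and was higher in 5 of 6. Without Ts65Dn replicate 2, the mouse in which Tmem181b-ps was lower in HIP, its value was 0.46 and the adjusted p 0.0167. Without the mouse labelled Ts65Dn replicate 3 the values were -0.15 (adjusted p = 0.123) for Tmem181a and 0.16 (adjusted p = 0.311) for Tmem181b-ps. Tmem181c-ps passed narrowly (0.41, SE 0.16, adjusted p = 0.0491), a call that was lost without replicate 1, 3, 4, 5 or 6, where the adjusted p was 0.0596 to 0.176. Dynlt1a had -0.07 (SE 0.25, adjusted p = 0.912) and Dynlt1f 0.03 (SE 0.19, adjusted p = 0.932). Of all 17314 genes tested, 52.3% were called between the regions in Ts65Dn mice, 26.6% higher and 25.7% lower in HIP.

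Whether the region difference itself differed by genotype was fitted as an interaction over all 24 libraries. With edgeR 0 of 18109 genes passed (0%), 742 had an unadjusted p under 0.05, and DESeq2 called 0 with 503 at an unadjusted p under 0.05. The interaction values were 0.16 (SE 0.10) for Tmem181a and -0.12 (SE 0.21) for Tmem181b-ps, and 0.15 and -0.26 without the mouse labelled Ts65Dn replicate 3, so a difference between the genotypes in these region effects was not shown.

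The share of Tmem181a in the counts of Tmem181a and Tmem181b-ps does not depend on library scaling. In wt mice it was 66.5% ± 9.47 in HIP and 76.6% ± 6.29 in EC (SD, n = 6), lower in HIP in 6 of 6 mice. The exact sign-flip permutation test (two-sided, paired by mouse) gave p = 0.03125, the smallest that 6 mice allow, and an adjusted p of 0.3125 over the 10 shares tested. In Ts65Dn mice the share was 63.3% ± 6.93 in HIP and 69.5% ± 11.2 in EC, lower in 5 of 6 mice, with an exact p of 0.0625 and an adjusted p of 0.3125, and the mean difference moved from -6.19 to -4.55 percentage points without the mouse labelled replicate 3. None of the 8 Dynlt1 shares differed between regions at an exact unadjusted p of 0.05, the lowest being 0.156 for Dynlt1c in Ts65Dn mice, and with 6 mice the design could not bring a single share past the adjusted threshold.

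**Figure D4:**
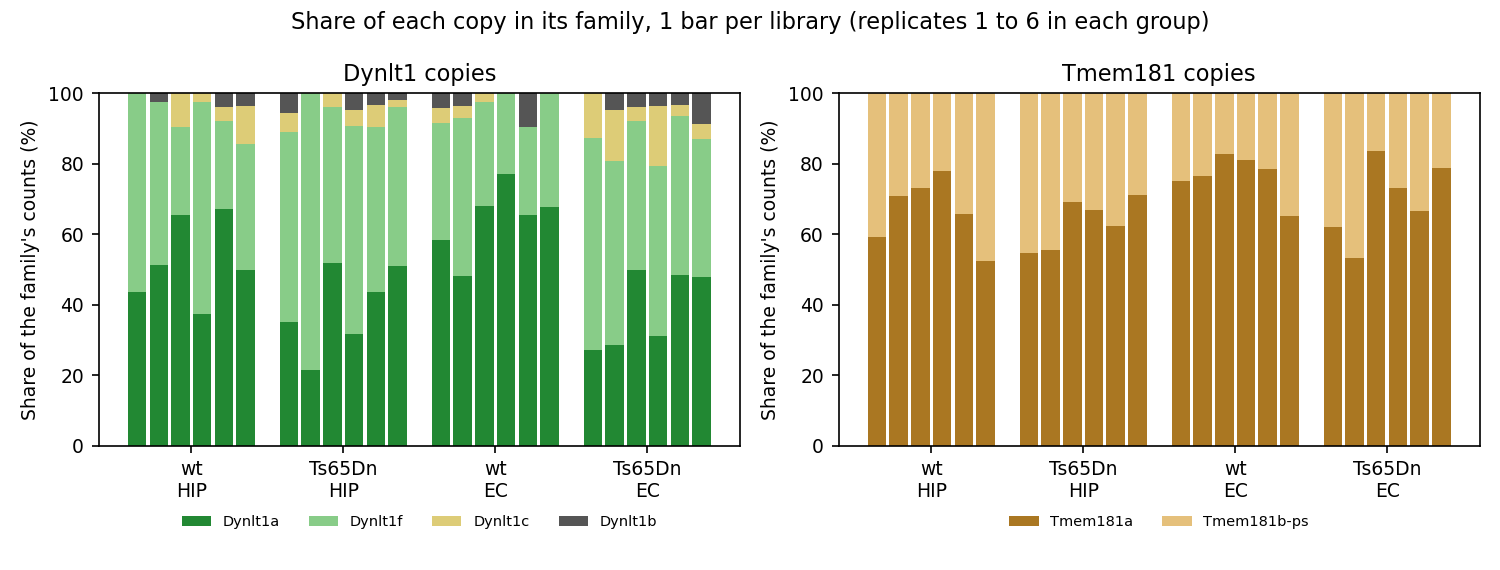
Share of each copy in the counts of its family (%, vertical axis from 0 to 100), with 1 bar per library and replicates 1 to 6 in order within each group. The mean share of Tmem181a is 66.5% in wt HIP and 76.6% in wt EC, and that of Dynlt1a is 64.2% in wt EC and 38.8% in Ts65Dn EC.

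Mice with a high level in one region tended to be high in the other for Tmem181a. In wt mice Pearson's r between HIP and EC log2 CPM was 0.816 (exact permutation p = 0.0389, adjusted 0.0933 over 12 relations) and Spearman's rho 0.771 (exact permutation p = 0.103, adjusted 0.176). Without the 2 mice farthest from the median r was 0.991. In Ts65Dn mice r was 0.954 (exact permutation p = 0.00694, adjusted 0.0583) and rho 0.829 (exact permutation p = 0.0583, adjusted 0.175), and r was 0.920 without the 2 farthest mice and 0.955 without the mouse labelled replicate 3. None of the 12 relations passed the adjusted threshold. The median r over 18109 genes was 0.348 in wt and 0.226 in Ts65Dn mice, and 10.9% and 1.49% of genes had a higher r than Tmem181a.

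For Tmem181b-ps r was 0.798 in wt mice (exact permutation p = 0.0306, adjusted 0.0917), rho 0.943 (exact permutation p = 0.0167, adjusted 0.175), and r was 0.571 without the 2 farthest mice. In Ts65Dn mice r was 0.418 (exact permutation p = 0.464, adjusted 0.619), rho 0.429 (exact permutation p = 0.419, adjusted 0.559), and r turned to -0.221 without the 2 farthest mice and to -0.0597 without the mouse labelled replicate 3. For Tmem181c-ps the mice fell into a low and a high set in both regions, so its r over all mice, 2 of the 12 relations, is not given, and no set within a genotype held the 6 mice set here as the fewest for a correlation. Dynlt1a had r = 0.320 in wt mice (exact permutation p = 0.565, adjusted 0.678) with rho -0.0857 (exact permutation p = 0.919, adjusted 0.919), and 0.279 without the 2 farthest mice. In Ts65Dn mice its r was 0.712 (exact permutation p = 0.108, adjusted 0.186), rho 0.829 (exact permutation p = 0.0583, adjusted 0.175), and r was 0.830 without the 2 farthest mice. Dynlt1f, with fewer counts, had r = -0.461 in wt mice (exact permutation p = 0.362, adjusted 0.544), rho -0.486 (exact permutation p = 0.356, adjusted 0.533), and -0.167 without the 2 farthest mice. In Ts65Dn mice its r was 0.766 (exact permutation p = 0.0778, adjusted 0.156), rho 0.771 (exact permutation p = 0.103, adjusted 0.176), and r was 0.884 without the 2 farthest mice and 0.507 without the mouse labelled replicate 3.

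**Figure D5:**
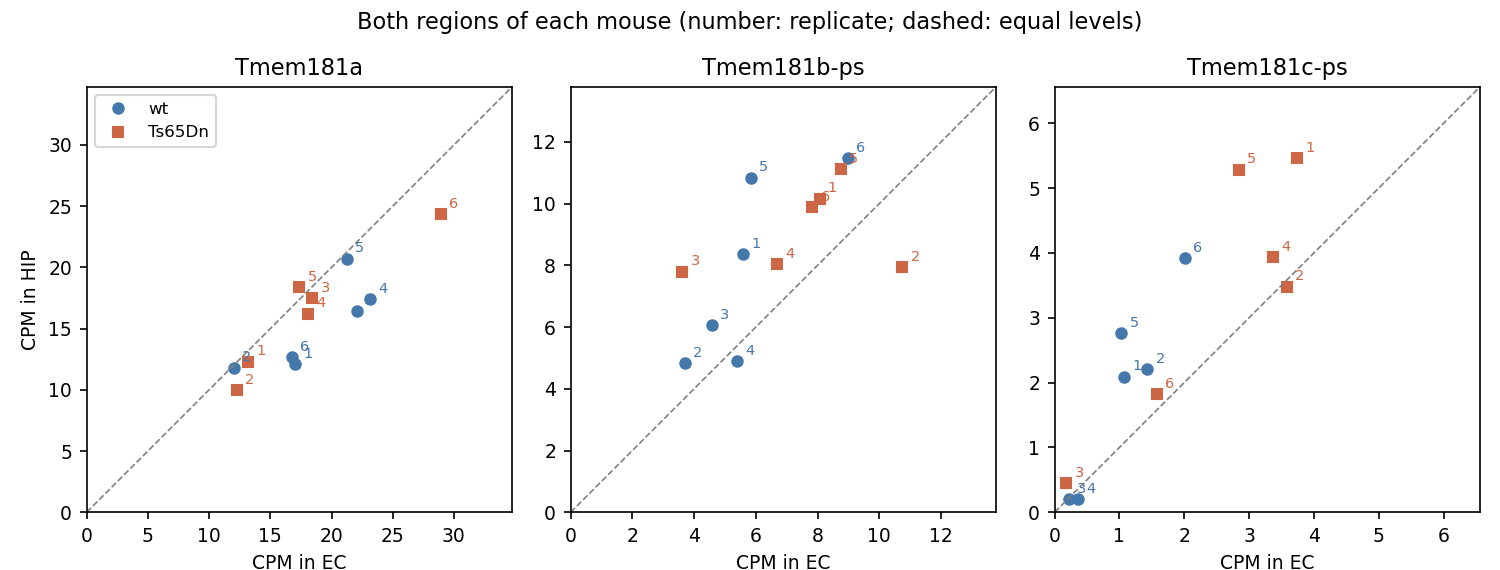
Level in HIP (vertical axis, CPM) against EC (horizontal axis, CPM) of each mouse for Tmem181a, Tmem181b-ps and Tmem181c-ps, wt mice as blue circles and Ts65Dn mice as orange squares, numbered by replicate, with the dashed line at equal levels. All 6 wt mice lie below the line for Tmem181a, and for Tmem181c-ps 3 mice lie at 0.450 CPM or less in both regions.

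Across the 24 libraries, with the mean of each group taken off, the gene closest to Tmem181a among the other copies was its overlapping neighbour Dynlt1a. Their Pearson r was 0.777 (0.798 in the 12 wt libraries alone and 0.775 without the mouse labelled Ts65Dn replicate 3). The counts of Dynlt1a were 2.91 to 5.10% of those of Tmem181a in wt HIP and 1.78 to 3.70% in Ts65Dn HIP, and 3.13 to 5.24% in wt EC and 1.65 to 3.56% in Ts65Dn EC. The words of Dynlt1a included 484 that were antisense to Tmem181a, and the part of the overlap in this likeness was not tested. Dynlt1a and Dynlt1f had an r of -0.152, and Tmem181a and Tmem181b-ps of 0.0262.

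Among all genes that passed the filter, those with the highest r with Tmem181a were Rab5a, an early endosome GTPase (0.820), Exoc8, an exocyst subunit (0.807), and Ccnb1ip1, a cyclin-binding protein gene (0.806), and the lowest were Rcbtb2 (-0.850), Fxyd2, a regulator of the sodium pump (-0.823), and Ang, a ribonuclease (-0.812). Dynlt1a was most like Gm48796 (0.850), Tmem181a and Ccnb1ip1 (0.774) and least like Rcbtb2 (-0.754), Itpk1 (-0.732) and Folh1 (-0.725). Tmem181b-ps was most like Ccr6, a chemokine receptor gene of the same Mmu17 segment (0.824), AC166110.4, a non-coding RNA on chromosome 17 (0.808), and Ptpn12 (0.784), and least like Pfdn5 (-0.839), Rpl10 (-0.832) and Rpl14-ps1 (-0.806). Ccr6 (0.875) and AC166110.4 (0.830) were also near Tmem181c-ps, after Amd-ps4 (0.926), and its lowest r were with Zfp110 (-0.805), Nudc-ps1 (-0.795) and Ppt1 (-0.778). Without the mouse labelled Ts65Dn replicate 3 these were weaker, in the same order 0.789, 0.701, 0.875, -0.678, -0.678 and -0.60. The mice fell into a low and a high set of Tmem181c-ps, so its r also reflect the gap between the sets, and r within a set was not computed. Dynlt1f was most like Mfsd13b (0.760), Tpst1 (0.708) and Gp9 (0.706) and least like Adra1a (-0.741), Myo5a (-0.740) and Gabrb2 (-0.724). Without the mouse labelled Ts65Dn replicate 3 some values of Tmem181b-ps and Dynlt1f were weaker too, such as Rpl14-ps1 (-0.731) and Tpst1 (0.615), while Adra1a had -0.778. These values describe libraries that share mice and depth, and none was tested.

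The partners of Dynlt1 in the dynein motor gave 0 calls between genotypes in HIP and 1 in EC, beside 1.04% and 2.50% of all genes. Of 32 genes for dynein chains, dynactin and their regulators, listed with earlier results known, 31 passed the filter in HIP and none was called by edgeR, with a median log2 fold change of 0.0064. DESeq2 also called 0, against 3.81% of all genes, and 1 had an unadjusted p under 0.05 in edgeR and 1 in DESeq2, against 14.8% and 15.1% of all genes. It was Dctn1, the large dynactin subunit (0.12, SE 0.05, adjusted p = 0.317). In EC 1 of 30 was called, Dctn1 (0.17, SE 0.04, adjusted p = 0.0337), and the median was 0.0040. DESeq2 called 2 there, Dctn1 and Pafah1b1, the dynein regulator Lis1 (-0.15, SE 0.05, edgeR adjusted p = 0.110), against 6.69% of all genes. At an unadjusted p under 0.05 stood 8 of the 30 with edgeR and 8 with DESeq2, against 19.0% and 19.4% of all genes. The edgeR call of Dctn1 was lost in 8 of the 12 fits without 1 mouse, those without wt replicate 1, 3, 4, 5 or 6 or Ts65Dn replicate 1, 2 or 4, with values of 0.16 to 0.18. It was also lost without the low-count filter (0.17, adjusted p = 0.0950) and with the replicate number as a block (0.17, adjusted p = 0.122). Without the mouse labelled Ts65Dn replicate 3 it was kept (0.15, adjusted p = 0.0463), again the only one of the 30 called by edgeR in EC, and HIP again gave 0 of 31. Dync1h1, the heavy chain, had 0.13 (SE 0.09) in HIP and 0.08 (SE 0.07) in EC, and Dynlt3, the paralogue of Dynlt1, -0.11 (SE 0.06) and -0.22 (SE 0.08, adjusted p = 0.155). Dynlt3 was singled out after its values were seen.

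Between regions, 7 of 30 motor genes were higher and 12 lower in HIP in wt mice, beside 61.3% of all genes called. In Ts65Dn mice 4 were higher and 11 lower, beside 52.3%. Dync1h1 was lower in HIP (-0.42, SE 0.04, adjusted p = 6.53e-06, in wt mice), as were the light chains Dynll2 (-0.29, SE 0.04, adjusted p = 5.25e-05) and Dynlrb1 (-0.44, SE 0.05, adjusted p = 1.34e-05). Other light chains differed from these. Dynlrb2 was higher in HIP in wt mice (2.14, SE 0.33, edgeR adjusted p = 0.000237), and Dynll1 was not called (-0.05, SE 0.04, adjusted p = 0.264). The intermediate chain Dync1i2 was higher (0.32, SE 0.04, adjusted p = 2.61e-05), and so was Nde1, a dynein regulator (1.11, SE 0.05, adjusted p = 3.15e-08). Dynlt1a and Dynlt1f, given above, passed in neither direction.

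The other GOLD domain seven-helix genes, relatives of Tmem181, gave 0 calls of 7 between genotypes in HIP and in EC with edgeR and with DESeq2, beside 1.04% and 2.50% of all genes in edgeR. In edgeR no member stood at an unadjusted p under 0.05 in HIP, and 3 did in EC (Gpr108, Tmem87a and Wls, adjusted p 0.119 to 0.208), beside 14.8% and 19.0% of all genes. The median log2 fold change was 0.02 in HIP and -0.02 in EC. Between regions in wt mice 4 of 7 were called, beside 61.3% of all genes. Wls, which carries Wnt proteins to the cell surface (-0.69, SE 0.10, adjusted p = 0.000154), Gpr180 (-0.36, SE 0.06, adjusted p = 0.000612) and Tmem145 (-1.25, SE 0.12, adjusted p = 7.49e-06) were lower in HIP, like Tmem181a, and Gpr108 was higher (0.16, SE 0.05, adjusted p = 0.0145, but 0.0935 with DESeq2). The first 3 were lower in Ts65Dn mice too, and Gpr108 was not called there.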

How the data were processed

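RNA-seq was performed on 24 libraries, from the hippocampus and entorhinal cortex of 6 wt and 6 Ts65Dn mice. The authors sequenced single reads of 50 bases on an Illumina HiSeq, aligned them with Hisat2 to GRCm38 (mm10 in the submitters' processing notes, which also name bcl2fastq 2.17.1.14 and DESeq2) and deposited raw counts per gene from HTSeq-count. The HTSeq options for strand and for reads that fit several places are not given in the sources used here. Per the labels the kit was TruSeq Stranded mRNA, while the methods also describe ribosomal depletion. The count table held 55385 genes and 24 library columns, and 99.6% of its gene identifiers were matched to GENCODE vM21, which gave gene models and transcript sequences. Totals were 23128589 to 40476492 counts per library, and limits from counts cover counting error only.

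The 6 copies and all gene lists were chosen with earlier results of these data known. Groups and replicate numbers came from the sample labels. Genotypes were compared within each region with edgeR 4.0.16 (filterByExpr, TMM, quasi-likelihood test, R 4.3.3), regions within each genotype with the mouse as a block, and the interaction over all libraries with the mouse as a block. P-values were adjusted over all genes tested by the Benjamini-Hochberg method, with 0.05 as the threshold. Family sums replaced their copies' rows in separate fits of the same kind. The fits were tried on simulated counts, with the mean and spread of each gene taken from the real libraries. In the HIP genotype fit 102 of 200 genes changed 1.5-fold were called (51%, 4 false calls over 17355 genes), so a gene of that size could be missed. The change was put into every Ts65Dn library of genes drawn at random. In the data the mouse labelled Ts65Dn replicate 3 had the Mmu17 segment near the wt level in HIP (median 1.03 times). The 51% therefore does not describe the triplicated genes or the copies with few counts. The wt region fit called 105 of 200 (52.5%), but the simulated counts held no mouse effect. That value therefore does not describe the fit with the mouse as a block on these data. Both regions of a mouse deviated from their group means together, with correlations of 0.241 to 0.426 in wt and 0.178 to 0.426 in Ts65Dn mice, all 6 in each genotype over 0.1 and highest with the same mouse. Nothing else in the labels says how mice relate, so p-values between genotypes measure the spread between these animals. Those between regions and of the interaction measure the spread over these animals of the difference within a mouse. CPM used TMM library sizes, and log2 CPM used a prior count of 2. Shares of copies were compared by an exact sign-flip permutation test over mice and levels in both regions by exact permutation of the pairings (Python 3.11.15, scipy 1.17.1).

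Named were all copies, their sums, other genes of the cluster with the same names and 9 flanking genes. Also named were list genes called between genotypes, with at most 4 others each. Of the motor genes called between regions only some were named. For each copy the 3 genes with the highest and the 3 with the lowest Pearson r were named. That r was of log2 CPM over 24 libraries after group means were taken off. Alternatives were DESeq2 1.42.0, its size factors in edgeR, no low-count filter, other blocks and leaving out each mouse.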

Additional observations from a re-analysis of the deposited data

Results flagged for a closer look

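Among 40 sets of 6 libraries (each copy or sum in each group), 4 held 1 library whose gap to the next was a larger part of the set's range than Dixon's 95% limit, and chance gives about 1 in 20 sets. Tmem181a stood at 28.9 CPM in Ts65Dn EC replicate 6 (gap 0.630 of the range), against a median of 17.4 CPM in the other 5 mice, and the Tmem181 sum at 36.8 CPM there (0.686), against 23.0 CPM. The same mouse had the highest Tmem181a level in HIP, and the sum shares most of its counts with Tmem181a. Dynlt1f stood at 0.812 CPM in wt HIP replicate 4 (0.663), against a median of 0.387 CPM in the others. Dynlt1b stood at 0.110 CPM in wt EC replicate 5 (0.654), which is 3 counts.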

How the results depend on the processing

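Over all settings tried, no called value changed its sign, while values near 0 that passed no threshold did, as given above for Tmem181a. Of 301 repeats of the gene counts, family sums, copy shares and relations between regions, 276 stayed within a limit set for each kind. The copy shares repeated without 1 mouse could only stay, since the exact test on so few mice cannot pass the threshold. Those repeats are no measure of stability. The limit was the same side of the threshold, a move below the spread of the values, or a count within 1.5 times. It allowed a change of sign near 0, as for the Tmem181 sum in EC (0.06, and -0.07 without Ts65Dn replicate 6). A further 24 counts moved beyond it and 1 gained calls. Another 1071 repeats covered other values, among them the single copies and the flanking genes. Of these, 935 stayed within their limit, 81 lost a call, 49 moved further and 6 gained a call. Calls between genotypes numbered 181 in HIP and 426 in EC, and DESeq2 gave 662 and 1141. Without the low-count filter EC gave 275 calls and the interaction 37, where it had 0. Leaving out 1 mouse gave 54 (without Ts65Dn replicate 6) to 318 (without Ts65Dn replicate 3) calls in HIP and 90 (without Ts65Dn replicate 1) to 685 (without Ts65Dn replicate 6) in EC. The cause was not tested.

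With the shared replicate number as a replicate block, HIP gave 29 and EC 36 calls, and 1 flanking gene each, Synj2 and Ezr. wt and Ts65Dn mice of 1 number shared only that number: their correlations were -0.198 to 0.153 in HIP and -0.0812 to 0.166 in EC, and 1 of 6 in each region was highest with its own number. Without the mouse block, Tmem181a, Tmem181b-ps and Tmem181c-ps lost their region calls in wt mice (adjusted p 0.145, 0.142 and 0.228) and Tmem181c-ps in Ts65Dn mice (0.570), where DESeq2 gave 0.0888 and its size factors 0.0508. Levels per specific word, relations without Ts65Dn replicate 3 and settings for the flanking genes were added after seeing the data. Levels per position unique in the genome were not run, as no genome sequence was given. Depth limits Dynlt1b and Dynlt1c, with 0 to 6 counts per library.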
